A study of Mus musculus with 10 samples.

Results

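Genes of cholesterol synthesis, of its control by SREBP and of sterol transport were followed in normal mouse cholangiocytes grown in either of a pair of matrices. They were 31 genes of the 18407 in the deposited count table, chosen by symbol for their known roles. The choice was made after earlier results of these data had been seen. The 31 genes comprised 8 enzymes of the isoprenoid arm, 11 enzymes of the sterol arm, 5 genes of SREBP control and 7 genes of sterol transport and its regulation by liver X receptors (LXR). The NMC line, a mouse bile duct epithelial line, was cultured for 6 days as 3D double spheroids, with no further treatment. There were 5 libraries from a laminin-rich matrix (laminin and collagen I mixed at 3:1 by volume) and 5 from collagen I alone at 1 mg/mL. Both matrices thus contained collagen I. Every library came from the same line in the same serum-containing medium, and how the cultures were divided into replicates is not described, which means that the p-values reflect only how far these particular libraries vary. All 31 genes had a row in the table and 29 passed the filter on low counts. Abcg1, a sterol efflux transporter, and Mylip, a ubiquitin ligase that degrades lipoprotein receptors, did not pass it.

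Cells make cholesterol from acetyl-CoA. The isoprenoid arm builds farnesyl pyrophosphate through mevalonate, and the sterol arm joins it into squalene and converts that to cholesterol. Transcription of these enzymes is driven mainly by SREBP-2, a membrane-bound factor that SCAP escorts from the endoplasmic reticulum to the Golgi for cleavage when sterols are scarce, while INSIG proteins hold SCAP back when sterols are plentiful. Oxysterols formed when sterol is abundant activate LXR, which induces efflux transporters such as ABCA1. Cholangiocytes are exposed to the sterols of bile.

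The libraries held 4424725 to 8129979 counts. Levels are given in CPM, counts scaled to a common TMM-adjusted library size. The biliary epithelial label was checked against 15 cholangiocyte markers, led by Krt19 and Spp1, which summed to 3102 to 3773 CPM in laminin and 2865 to 3729 CPM in collagen. The secretin receptor Sctr had no count in any library. Of 10 hepatocyte markers 3 reached a mean of 1 CPM, and that list summed to 135 to 184 CPM in laminin and 87.4 to 133 CPM in collagen. Of 10 fibroblast and stellate markers 7 did so (612 to 756 CPM in laminin, 599.8 to 756 CPM in collagen; Lrat at 0), of 8 leukocyte markers 1 did (4.00 to 7.04 CPM in laminin, 4.38 to 8.55 CPM in collagen; led by Cd68, with Adgre1 at 0), and of 8 endothelial markers 0 did, with Cdh5, Kdr, Erg and Emcn at 0. The part of these levels in the matrix comparison was not tested. The slope of log2 level on transcript length, per doubling, lay between -0.115 and 0.163 in laminin and between -0.371 and 0.183 in collagen. The library codes carry a letter whose meaning is not stated: laminin replicates 1 to 3 carry E and 4 and 5 carry F, while collagen replicates 1 to 3 carry B and 4 and 5 carry D. No letter occurs in both matrices, so letter and matrix cannot be told apart. For the sterol genes, laminin replicate 1 stood apart from the other laminin libraries, and differences are given with and without it, in the text or in the plot of differences by gene.

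With all 10 libraries, none of the 29 tested genes passed the test for a matrix difference. In such bulk libraries fewer cells of a type and less RNA per cell cannot be told apart. By edgeR's quasi-likelihood F test, with p-values adjusted by Benjamini and Hochberg's method over the 10789 genes tested, 0 of 29 had an adjusted p below 0.05, where 0.148% of all genes did and 0.00927% were called lower. At an unadjusted p below 0.05 there was 1, Abca1, higher in laminin (11.7% of all genes in either direction), and none of the 29 was lower (4.95%). DESeq2 made 1 call, Abca1 (1.76% of all genes), and limma-voom 0 (0.176%). The 5 laminin and 5 collagen values of every one of the 29 genes overlapped, where 3.23% of all genes had groups that did not. The log2 difference, laminin minus collagen, was below 0 in 18 of the 19 synthesis enzymes (48.3% of all genes), with a median of -0.27 for these enzymes, -0.12 for all 29 genes and 0.01 for all genes tested. Laminin replicate 1 was singled out for its high values in these same genes. Fits without it thus describe the remaining libraries, and their p-values are not independent support for a matrix difference. Without laminin replicate 1, the median of the synthesis enzymes was -0.65 and that of the 29 genes -0.48. Then 2 enzymes were called lower, Sqle and Lss (0.0924% of all genes were called lower in that fit), and 13 of 19 enzymes were lower at an unadjusted p below 0.05 (5.8%). Again 18 of 19 were below 0 (48.8%). In that set of libraries, alternatives chosen after seeing the data called other numbers. Limma-voom called 3 of the 29 genes (0.591% of all genes in either direction), 2 lower and Abca1 higher. DESeq2 called 9 (2.61%), 8 lower and Abca1 higher. With the replicate number as a block, 0 were called, where 23 of 10825 genes were. No gene of the 31 was called in any of the 9 fits that left out another single library.

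The summed level of the 19 synthesis enzymes shows the same arrangement of libraries. It was 3904 CPM in laminin replicate 1, and 1660, 1603, 1318 and 2014 CPM in laminin replicates 2, 3, 4 and 5, against 2435, 2745, 2248, 2931 and 2996 CPM in collagen replicates 1 to 5. Laminin replicate 1 thus lay above every collagen library, and the other 4 laminin libraries lay below every collagen library. The group means were 2100 ± 1038 CPM in laminin and 2671 ± 322 CPM in collagen (SD, n = 5 each), and 1649 ± 286 CPM over laminin replicates 2 to 5 (n = 4). Laminin replicate 4 was the lowest of all 10 libraries for 12 of the 19 enzymes (10.3% of all genes).

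**Figure D1:**
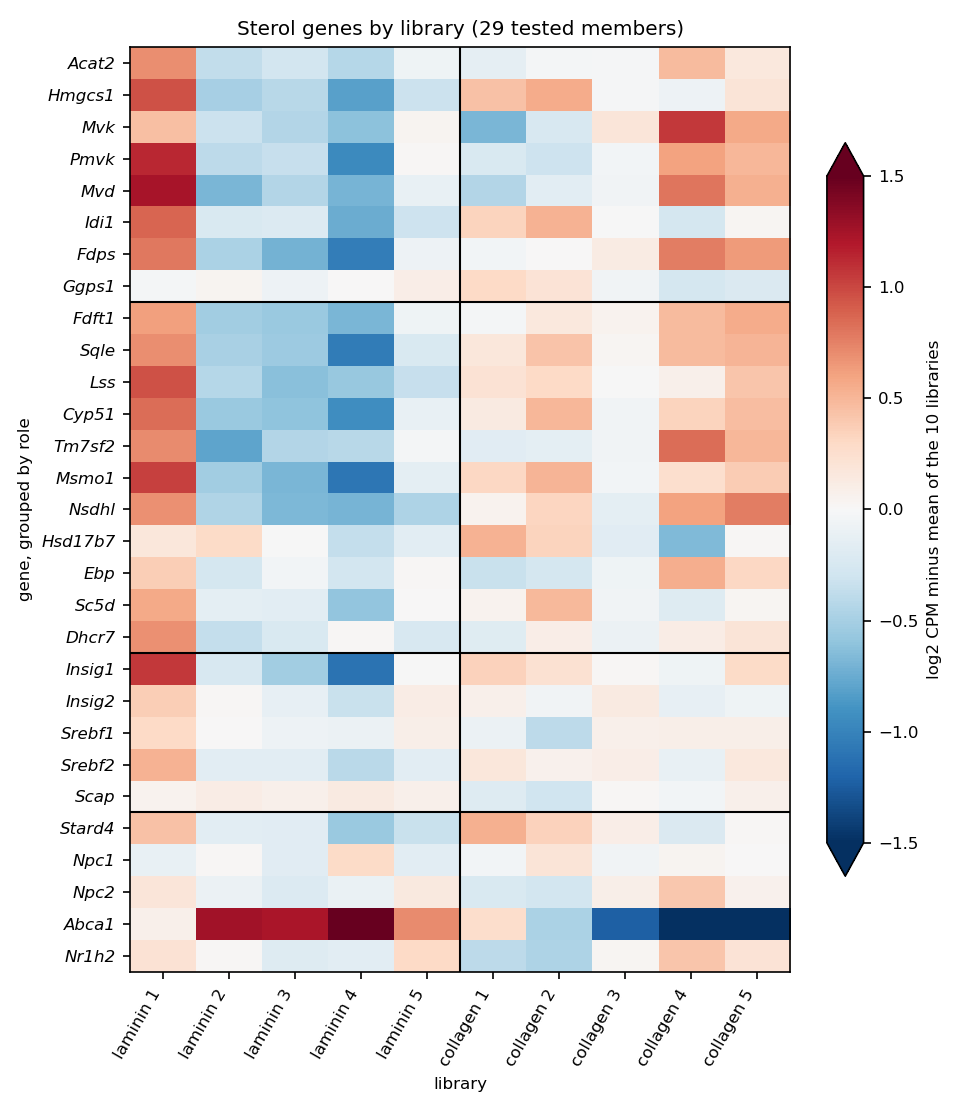
Log2 CPM of the 29 tested sterol genes (rows, grouped from top to bottom as isoprenoid arm, sterol arm, SREBP control, and transport and LXR) in each library (columns, laminin left of the line), as the difference from the gene's mean over the 10 libraries. Laminin replicate 1 is red for most synthesis enzymes and laminin replicates 2 to 4 are blue for most of them, while Abca1 is red in laminin replicates 2 to 5 and near its mean in replicate 1.

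The upstream sequences of a few of these genes are shown because SREBP acts through short promoter elements that the synthesis genes can share. RefSeq promoter windows (GRCm38.p6) were available for 25 of the 31 genes, and the 250 bases upstream of each RefSeq start were searched on both strands. In GENCODE M21 annotation some genes start within their window, among them Idi1 at 8885501, Lss at 76531588 and Insig1 at 28071363. The NF-Y boxes of Idi1, which begin 45 and 14 bases before its RefSeq start, thus lie inside the gene in that annotation. Capitals mark the sterol regulatory element TCACNCCAC and the box ATTGG (or its reverse complement) bound by NF-Y, a factor that cooperates with SREBP. Hmgcs1, Idi1 and Insig1 are SREBP-responsive genes, Lss is the synthesis gene with the lowest p without laminin replicate 1, and Abca1 is the efflux gene whose level was lowest in replicate 1 among the laminin libraries. Lss and Abca1 were picked after their values were seen.
Hmgcs1, chr13:119690101-119690350, plus strand: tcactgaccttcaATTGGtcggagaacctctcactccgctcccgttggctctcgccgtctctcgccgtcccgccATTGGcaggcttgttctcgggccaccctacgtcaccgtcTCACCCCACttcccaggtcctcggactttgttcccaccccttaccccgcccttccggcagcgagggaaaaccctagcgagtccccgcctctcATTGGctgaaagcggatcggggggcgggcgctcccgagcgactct
Idi1, chr13:8885356-8885605, plus strand: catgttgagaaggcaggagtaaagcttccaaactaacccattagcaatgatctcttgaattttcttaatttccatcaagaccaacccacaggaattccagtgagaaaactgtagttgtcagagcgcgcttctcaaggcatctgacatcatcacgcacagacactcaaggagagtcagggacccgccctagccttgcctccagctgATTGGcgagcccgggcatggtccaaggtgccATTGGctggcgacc
Lss, chr10:76531355-76531604, plus strand: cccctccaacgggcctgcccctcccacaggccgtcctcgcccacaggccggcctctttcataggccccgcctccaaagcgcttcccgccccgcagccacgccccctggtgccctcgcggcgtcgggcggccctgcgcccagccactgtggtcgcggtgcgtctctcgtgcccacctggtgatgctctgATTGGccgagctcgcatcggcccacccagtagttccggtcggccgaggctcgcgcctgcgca
Insig1, chr5:28071162-28071411, plus strand: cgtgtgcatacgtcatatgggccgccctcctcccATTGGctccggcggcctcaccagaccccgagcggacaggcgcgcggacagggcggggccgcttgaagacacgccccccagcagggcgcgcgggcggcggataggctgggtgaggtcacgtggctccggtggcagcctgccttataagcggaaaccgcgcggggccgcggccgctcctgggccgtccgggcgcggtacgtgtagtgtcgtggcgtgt
Abca1, chr4:53159896-53160145, minus strand: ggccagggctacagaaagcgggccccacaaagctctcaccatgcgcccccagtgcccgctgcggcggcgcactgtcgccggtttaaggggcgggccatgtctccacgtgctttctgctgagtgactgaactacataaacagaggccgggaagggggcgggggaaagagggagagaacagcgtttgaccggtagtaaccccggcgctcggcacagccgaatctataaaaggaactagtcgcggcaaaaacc

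The Hmgcs1 window held 1 sterol regulatory element, which began 137 bases before the start, and 3 NF-Y boxes. It was the only one of the 19 windows of synthesis genes to hold those 9 letters, against 0.961% of the windows of all tested genes. An NF-Y box was present in 15 of the 19 windows of synthesis genes (78.9%) and in 7 of the 14 windows of control and transport genes, against 35.5% of the windows of tested genes. By gene, with any of its windows counted, these were 15 of 16 and 6 of 9. The share by gene over all tested genes was not computed, and the 35.5% is per window. The Sp1 box GGGCGG, found in 15 of the 19 windows of synthesis genes (78.9%), was also in 10 of the 14 windows of control and transport genes (71.4%). It was in 59.8% of the windows of tested genes. The LXR element searched, AGGTCA repeated directly after a gap of 4 bases, was in no window of the 25 genes. It was also in 0 of the 11235 windows of tested genes and in 0.0152% of all promoter windows. Its absence thus does not set these genes apart, and variants of these letters were not searched. No matches of different motifs overlapped in these windows. A match is a description of letters, and a window without one says only that these letters are not in it.

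In the isoprenoid arm, 0 of 8 enzymes passed the test, with or without laminin replicate 1, and 6 of 8 were at least 1.5-fold higher in laminin replicate 1 than in every other laminin library, as for 1.14% of all genes. Hmgcs1, which condenses acetoacetyl-CoA into HMG-CoA, had 560.4, 204.5, 216, 163 and 229 CPM in laminin replicates 1 to 5, against 389.6, 422, 285, 272 and 330.2 CPM in collagen replicates 1 to 5. Replicate 1 was the highest of the 10 libraries, and the other 4 laminin libraries lay below all 5 collagen libraries. The log2 difference was -0.305 (SE 0.29, adjusted p = 0.736 in edgeR) and, without laminin replicate 1, -0.74 (SE 0.16, adjusted p = 0.0635).

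Fdps, which makes the farnesyl pyrophosphate at the branch point of the pathway, had 577, 239, 204, 162 and 317 CPM in laminin, against 324, 335, 363, 565 and 520.1 CPM in collagen. Its laminin libraries other than replicate 1 were again all below the collagen libraries, and the log2 difference was -0.49 (SE 0.30, adjusted p = 0.567) with replicate 1 and -0.87 (SE 0.23, adjusted p = 0.133 in edgeR) without it. Mvd, which decarboxylates phosphorylated mevalonate into the isoprene unit, had the highest ratio of laminin replicate 1 to the mean of the other laminin libraries, 3.27. It stood at 148.5, 38.9, 46.0, 38.5 and 58.1 CPM in laminin, against 46.0, 56.2, 60.4, 109 and 90.6 CPM in collagen. There the laminin libraries other than replicate 1 overlapped the collagen libraries of letter B and lay below those of letter D. The log2 difference of Mvd was -0.13 (SE 0.37, adjusted p = 0.922) with all libraries and -0.68 (SE 0.25, adjusted p = 0.283 in edgeR) without laminin replicate 1. The mevalonate kinases Mvk and Pmvk were likewise highest in letter D within collagen. Mvk had 46.5, 27.1, 24.8, 22.0 and 34.8 CPM in laminin, against 20.9, 28.6 and 38.3 CPM in the letter B and 70.6 and 50.4 CPM in the letter D libraries of collagen. Without the letter B libraries, Mvk was called lower in laminin (log2 difference -0.99, adjusted p = 0.0284 in edgeR). Collagen was then the letter D libraries alone, and that fit called 2083 of 11018 genes and 2 of the 29 sterol genes. The longest transcripts of Mvd, Mvk and Pmvk have 1833, 2380 and 1194 nt, with a GC content of 59.0%, 56.3% and 57.0%. The length slopes were -0.371 and -0.19 in letter D and -0.063 to 0.183 in letter B. The slopes on GC content, per 10 percentage points, were 0.268 and 0.189 in letter D and -0.308 to 0.093 in letter B. The part of length and GC content in these levels was not tested.

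Of the remaining isoprenoid enzymes, 3 were again highest in laminin replicate 1 and 1 was not. Acat2, the thiolase that joins acetyl-CoA units, averaged 115 ± 43.0 CPM in laminin and 126 ± 22.2 CPM in collagen. Pmvk averaged 45.9 ± 28.8 CPM in laminin and 48.6 ± 14.6 CPM in collagen, and the isomerase Idi1 58.0 ± 28.2 CPM in laminin and 64.9 ± 14.02 CPM in collagen (SD, n = 5 each). All 3 were highest in laminin replicate 1, by 1.97-fold, 2.85-fold and 2.34-fold over the mean of the other laminin libraries. Ggps1, which makes the geranylgeranyl pyrophosphate used to anchor proteins in membranes and not a precursor of sterols, did not follow them. It had 50.9, 53.4, 49.2, 52.3 and 56.0 CPM in laminin, against 64.1, 59.98, 50.2, 43.35 and 44.6 CPM in collagen, and laminin replicate 1 was at 0.966 of the mean of the other laminin libraries.

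**Figure D2:**
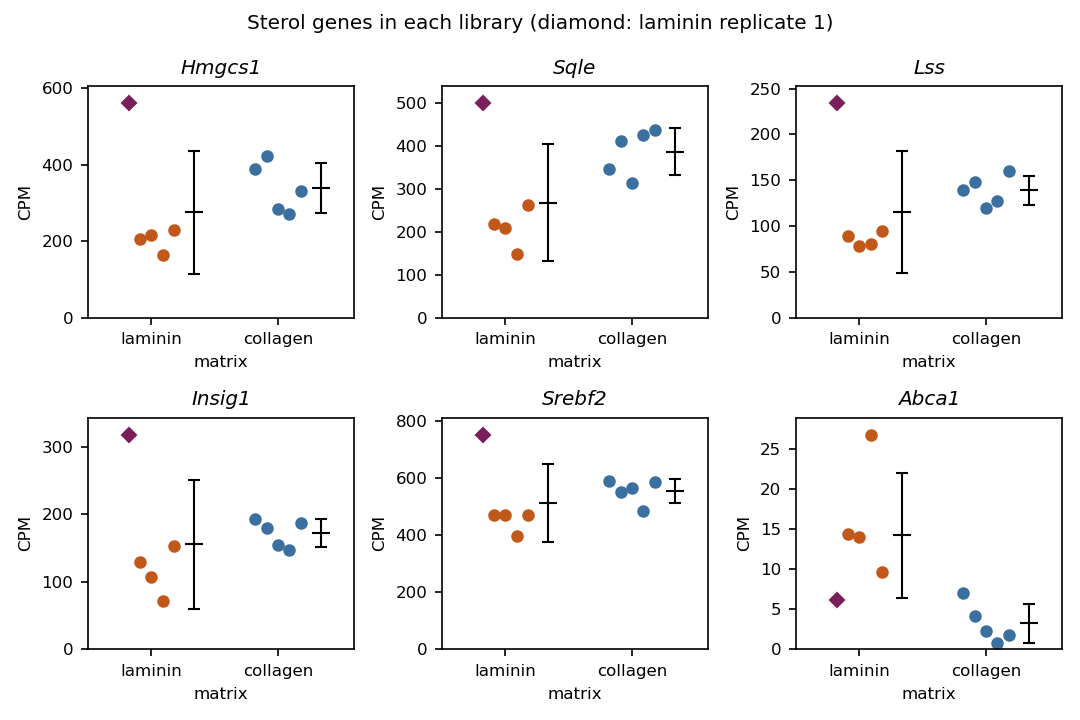
CPM (vertical axis, from 0) of 6 sterol genes in each library by matrix; points are replicates 1 to 5 from left to right, the diamond is laminin replicate 1, and the bar at the right of each group is the mean ± SD of its 5 libraries. In the 5 panels other than Abca1 the diamond is the highest point, whereas for Abca1 it is the lowest laminin point, at 6.16 CPM.

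In the sterol arm, 0 of 11 enzymes passed with all libraries, and 2 were called lower when laminin replicate 1, singled out for its values, was left out. Sqle (chr15:59315077-59331192, GRCm38), the squalene epoxidase that commits squalene to sterols, had 499, 218, 209, 149 and 262 CPM in laminin, against 346, 412, 313, 425 and 436 CPM in collagen. The log2 difference was -0.53 (SE 0.26, adjusted p = 0.457) with all libraries and -0.88 (SE 0.17, adjusted p = 0.0419 in edgeR) without laminin replicate 1. Lss (chr10:76531588-76557138), the cyclase that forms lanosterol, had 234, 89.5, 77.7, 80.8 and 94.5 CPM in laminin, against 139.8, 148, 119.6, 127 and 159.95 CPM in collagen. Its log2 difference was -0.27 (SE 0.27, adjusted p = 0.760) and, without laminin replicate 1, -0.70 (SE 0.12, adjusted p = 0.0286). For both enzymes the 4 other laminin libraries were below all 5 collagen libraries.

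Squalene synthase and 3 enzymes that act on lanosterol and its products had this arrangement as well. Fdft1, squalene synthase, had 227, 103, 101, 92.0 and 142 CPM in laminin, against 146, 165, 154, 206 and 218 CPM in collagen. Cyp51, the lanosterol demethylase, had 384, 145, 141, 112 and 198 CPM in laminin, against 236, 304, 206, 269.9 and 294 CPM in collagen. Msmo1, the methyl sterol oxidase, had 363, 125, 111, 84.2 and 162 CPM in laminin, against 222, 254, 174, 213 and 232 CPM in collagen. Without laminin replicate 1 the log2 differences of these 3 genes were -0.70 (SE 0.17), -0.81 (SE 0.17) and -0.87 (SE 0.18), with adjusted p = 0.0958, 0.0635 and 0.0613 in edgeR. In these 3 genes, as in Sqle, Lss and Nsdhl, laminin replicates 2 to 5 were all lower than the lowest collagen library. Nsdhl, the dehydrogenase that follows Msmo1, had 110.3, 50.1, 42.85, 42.0 and 49.5 CPM in laminin, against 71.2, 85.5, 61.8, 104 and 117 CPM in collagen. Its log2 difference of -0.57 (SE 0.27, adjusted p = 0.441 in edgeR) was the lowest of the 29 tested genes with all libraries, as was its -0.93 (SE 0.19, adjusted p = 0.0531) without laminin replicate 1.

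The group means of 4 other enzymes of the arm lay closer together. Ebp, an isomerase, averaged 63.8 ± 12.1 CPM in laminin and 68.3 ± 18.6 CPM in collagen. Sc5d, a desaturase, averaged 59.4 ± 18.2 CPM in laminin and 63.6 ± 12.1 CPM in collagen. Dhcr7, the reductase that ends the pathway through 7-dehydrocholesterol, averaged 46.9 ± 15.8 CPM in laminin and 47.0 ± 5.06 CPM in collagen. Hsd17b7, a sterol ketoreductase, averaged 29.9 ± 5.34 CPM in laminin and 31.1 ± 9.43 CPM in collagen (SD, n = 5 each). Their ratios of laminin replicate 1 to the mean of the other laminin libraries were 1.415, 1.72, 1.86 and 1.16, and their log2 differences without that library were -0.21, -0.29, -0.23 and -0.11. Tm7sf2, a sterol reductase with a low level per length of the longest annotated transcript (5.42 CPM per kb in laminin and 6.91 in collagen), had a ratio of 2.17. Its log2 difference was -0.34 (SE 0.29, adjusted p = 0.699 in edgeR) with all libraries and -0.65 (SE 0.25, adjusted p = 0.300) without laminin replicate 1.

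Over both arms, laminin replicate 1 was the highest laminin library for 17 of 19 enzymes (21.7% of all genes) and the highest of all 10 for 13 of 19 (9.8% of all genes). It was at least 1.5-fold above every other laminin library for 14 of 19 enzymes and for 123 of the 10789 genes (1.14%). Counting control and transport genes, 17 of the 31 sterol genes were among these 123, or 13.8% of them. Laminin replicate 4 had more such genes, 277, of which 1 was a sterol gene (Abca1). Laminin replicate 1 was at least 2-fold above the mean of the other laminin libraries for 12 of 19 enzymes (0.927% of all genes). Laminin replicates 2 to 5 were all below the 5 collagen libraries for 8 of 19 enzymes (2.6% of all genes). The log2 SD within laminin exceeded that within collagen for 15 of 19 enzymes (35.9% of all genes), with a median of 0.57 in laminin and 0.275 in collagen. In laminin replicate 1 the total was 7468219 counts, the length slope -0.012, the hepatocyte marker sum 135 CPM and the cholangiocyte marker sum 3773 CPM, the lowest and the highest of the laminin libraries for these marker sums. The part of depth, marker levels or length slope in its sterol gene levels was not tested.

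**Figure D3:**
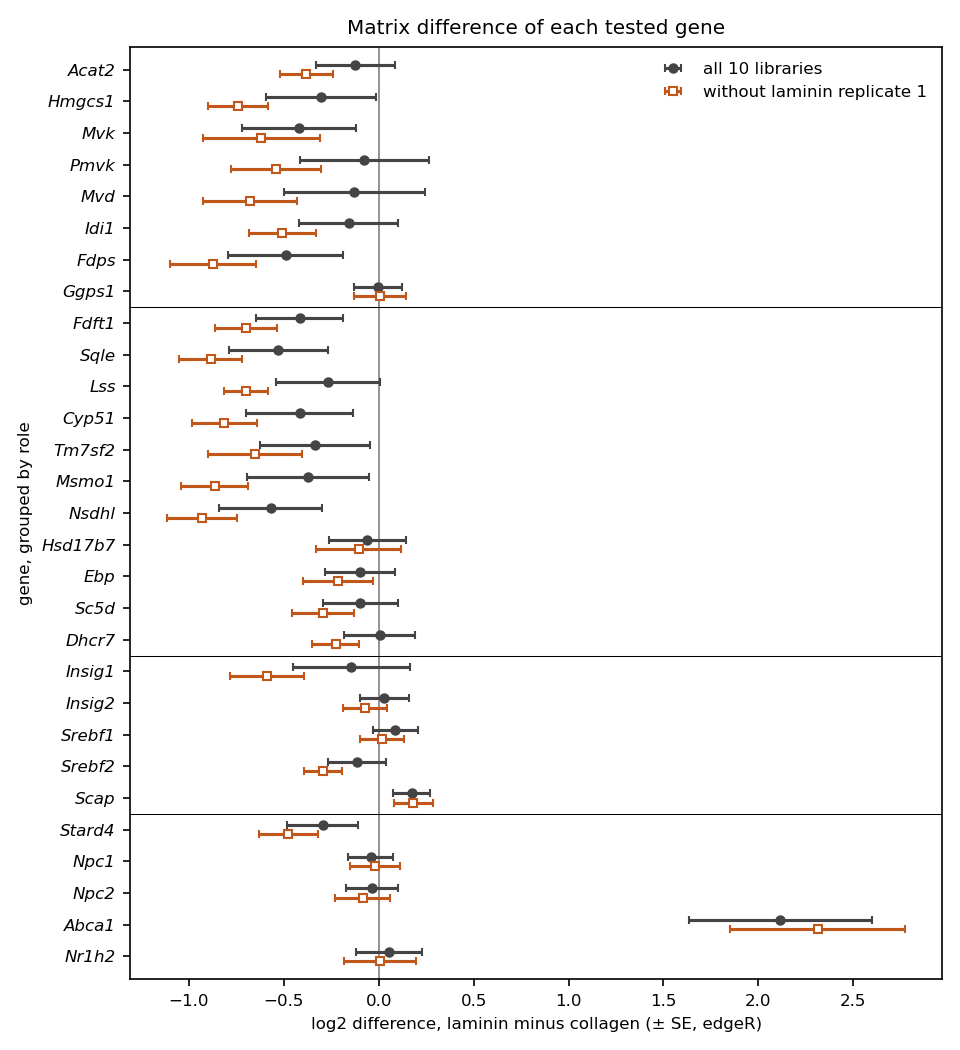
Log2 difference, laminin minus collagen, ± SE from edgeR for each of the 29 tested genes, with all 10 libraries (filled) and without laminin replicate 1 (open); groups run from the isoprenoid arm at the top to transport and LXR at the bottom. Without that library 18 of 19 synthesis enzymes lie below 0, Lss at -0.70 and Sqle at -0.88, and Abca1 lies at 2.31.

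Among the genes of SREBP control, 0 of 5 passed with or without laminin replicate 1. Insig1, which retains SCAP and is itself an SREBP target, had 318, 129, 106, 70.6 and 152 CPM in laminin, against 193, 179, 154, 146 and 186 CPM in collagen. Laminin replicate 1 was 2.77-fold above the mean of the other laminin libraries, replicate 4 was the lowest of all 10, and the log2 difference was -0.15 (SE 0.31, adjusted p = 0.896) with all libraries and -0.59 (SE 0.19, adjusted p = 0.244 in edgeR) without replicate 1. Insig2, its relative that is not driven by SREBP in the same way, varied less, from 58.3 to 95.0 CPM in laminin and from 67.8 to 80.6 CPM in collagen. Srebf2, which encodes SREBP-2, had 753, 471, 473, 398 and 470.3 CPM in laminin, against 592, 550.2, 564, 486 and 586 CPM in collagen. Its laminin libraries other than replicate 1 were below every collagen library, at a log2 difference of -0.29 (SE 0.10, adjusted p = 0.253 in edgeR) without replicate 1.

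Srebf1, which encodes the SREBP-1 forms that mainly drive fatty acid synthesis, had 474, 387, 366, 363 and 409 CPM in laminin, against 363, 295, 406, 409 and 411 CPM in collagen, and the groups overlapped. Scap was the most even of the 5 in laminin, from 98.7 to 105 CPM, against 77.5 to 101 CPM in collagen, with a log2 difference of 0.17 (SE 0.10, adjusted p = 0.517 in edgeR). Per transcript length, Srebf2, Fdps and Srebf1 stood at 101, 101.5 and 93.0 CPM per kb in laminin and at 109, 143 and 87.6 CPM per kb in collagen, which placed these regulators beside the most abundant enzymes.

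Of the transport and LXR genes, 5 of 7 were tested and none passed. Abca1 (chr4:53030787-53159895), the efflux transporter induced by LXR, had 6.16, 14.3, 14.07, 26.8 and 9.68 CPM in laminin, against 7.06, 4.11, 2.31, 0.814 and 1.76 CPM in collagen. Laminin replicate 1 was the lowest laminin library and was below collagen replicate 1, while the other 4 laminin libraries were above every collagen library. The log2 difference was 2.12 (SE 0.48, adjusted p = 0.109 in edgeR) and, without laminin replicate 1, 2.31 (SE 0.46, adjusted p = 0.0531). It also varied with the collagen libraries, at 3.38 (SE 0.65, adjusted p = 0.0204, called) without those of letter B and 1.67 (SE 0.47, adjusted p = 0.217 in edgeR) without those of letter D. The fit without letter B called 2083 of 11018 genes. The longest annotated Abca1 transcript has 10262 nt. The length slopes of collagen replicates 1 to 5 were 0.183, 0.154, -0.063, -0.371 and -0.19, and the Abca1 levels in collagen fell in the same order. The part of transcript length in these levels was not tested. Abca1 was called higher in 6 of the 27 alternatives, with adjusted p over all of them from 0.000338 to 0.409. Mylip and Abcg1, also known as LXR targets, were near the limit of detection: Mylip had 0.280, 0.363, 0.799, 1.20 and 0.230 CPM in laminin, against 0, 0.357, 0.122, 0.407 and 0 CPM in collagen, where 3 counts correspond to 0.369 to 0.678 CPM. Abcg1 had counts in 1 laminin and 1 collagen library.

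Stard4, a sterol carrier protein whose gene responds to SREBP-2, had 176, 116, 115, 88.6 and 103 CPM in laminin, against 188, 165, 139, 112 and 131 CPM in collagen, with a log2 difference of -0.30 (SE 0.19, adjusted p = 0.574) and, without laminin replicate 1, of -0.48 (SE 0.16, adjusted p = 0.241 in edgeR). Laminin replicate 1 was again the highest of its group, but did not exceed collagen replicate 1. Npc1 and Npc2, which move cholesterol out of late endosomes, averaged 28.2 ± 4.00 and 180.1 ± 21.01 CPM in laminin and 29.1 ± 2.11 and 184 ± 36.0 CPM in collagen. Nr1h2, which encodes LXR beta, averaged 120.0 ± 18.1 CPM in laminin and 116 ± 30.1 CPM in collagen (SD, n = 5 each). In these 3 genes laminin replicate 1 was at 0.923, 1.18 and 1.16 of the mean of the other laminin libraries.

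Other genes around the pathway were taken from lists set by role, also after earlier results of these data had been seen. Of 14 lipogenic SREBP-1 targets 0 were called in either direction, with a median log2 difference of 0.02. Laminin replicate 1 was at least 1.5-fold above every other laminin library for 5 of the 14: Acss2, Scd1, Scd2, Elovl6 and Aacs. Acss2, which makes acetyl-CoA from acetate, had 49.4, 20.2, 19.5, 17.5 and 22.8 CPM in laminin, against 24.0, 24.8, 19.8, 24.8 and 28.9 CPM in collagen. By lowest p the list was led by Acacb, with a log2 difference of 0.62 (SE 0.22, adjusted p = 0.309 in edgeR), and Elovl5, with 0.28 (SE 0.11, adjusted p = 0.344). The mean log2 deviation of this list from the average of the 10 libraries was 0.46 in laminin replicate 1, and -0.12 to -0.09 in the other laminin libraries, against -0.15 to 0.07 in collagen. For the lipogenic list, laminin replicates 2 to 5 thus overlapped the collagen range only through collagen replicate 4, at -0.154. They lay below the other collagen libraries, at -0.042 to 0.067. For the 19 cholesterol synthesis enzymes, laminin replicates 2 to 5 lay at -0.63 to -0.13, against -0.03 to 0.34 in collagen. Without laminin replicate 1, 0 of 14 lipogenic genes were called, with a median of -0.185.

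Of 12 genes of SREBP processing and sterol-regulated degradation 0 were called, and laminin replicate 1 was the highest laminin library for 0 of them. The lowest p-values in this list belonged to Rnf145 (log2 difference 0.30, SE 0.14, adjusted p = 0.429 in edgeR) and Faf2 (0.10, SE 0.12, adjusted p = 0.801). Of 23 tested genes of other sterol transport and esterification 0 were called. Lipa, the lysosomal lipase that frees cholesterol from its esters, had 281, 330.4, 337, 353 and 317.5 CPM in laminin, against 273, 276, 228, 212 and 217 CPM in collagen. Its group ranges did not overlap, as for 3.23% of all genes, at a log2 difference of 0.43 (SE 0.11, adjusted p = 0.152 in edgeR). Abca2, an endosomal transporter, gave 0.44 (SE 0.15, adjusted p = 0.295). Cav1, a cholesterol-binding scaffold of caveolae, was the only gene of these lists called without laminin replicate 1 (-0.73, SE 0.12, adjusted p = 0.0286 in edgeR, against -0.40, SE 0.23, adjusted p = 0.517 with all libraries), and was named after its values were seen. Of 12 genes of isoprenoid branches and 4 of oxysterol and bile acid enzymes 0 were called. Fntb, a farnesyltransferase subunit, gave -0.35 (SE 0.12, adjusted p = 0.309 in edgeR), and Rabggta, a subunit of the enzyme that prenylates Rab proteins, gave -0.23 (SE 0.16, adjusted p = 0.636). Cyp39a1 and Sult2b1 gave 0.06 (SE 0.12, adjusted p = 0.887) and -0.12 (SE 0.33, adjusted p = 0.916).

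**Figure D4:**
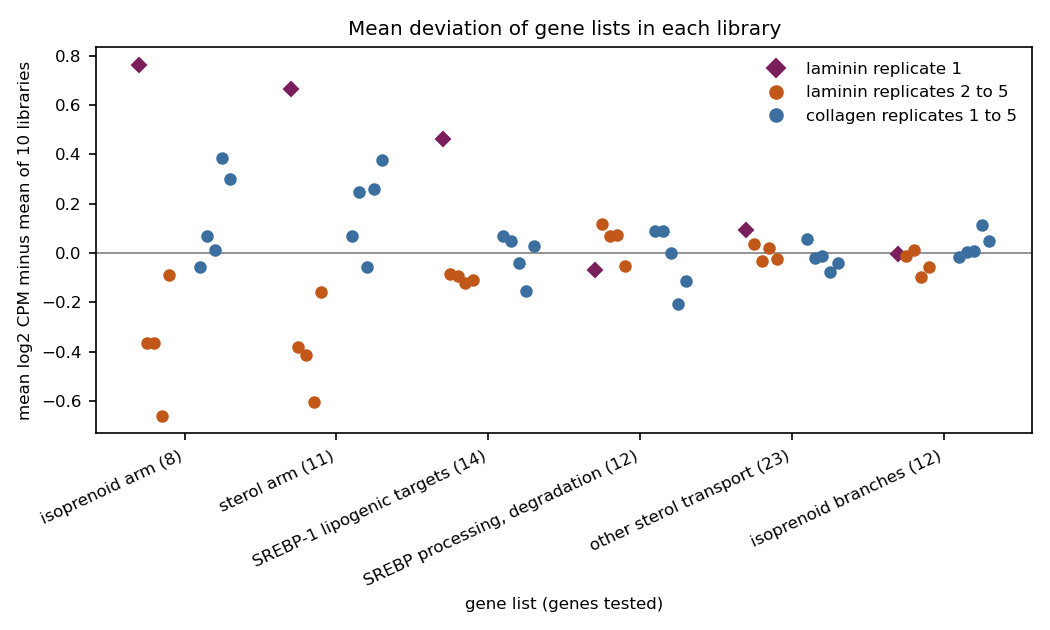
Mean log2 CPM of gene lists in each library (points), as the difference from the mean of the 10 libraries; laminin libraries are left of collagen libraries within each list, replicates run from left to right, and the diamond is laminin replicate 1. That library stands at 0.76 in the isoprenoid arm, 0.67 in the sterol arm and 0.46 in the lipogenic list, and at -0.068, 0.094 and -0.002 in the others.

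The comparison also depended on the collagen libraries' code letter. Without the letter D collagen libraries the median log2 difference of the synthesis enzymes was -0.19, with 12 of 19 below 0 (48.7% of all genes). Without the letter B libraries it was -0.48, with 15 of 19 below 0 (50% of all genes). Without the laminin libraries of letter E, which include replicate 1, it was -0.615, and without those of letter F -0.07. After a trend over GC content and transcript length was taken out of each library, 1 sterol gene was called with all libraries, Abca1 (0.964% of all genes in either direction). In that fit without laminin replicate 1, an alternative chosen after seeing the data, 12 were called, 11 of them lower (1.06% of all genes) and Abca1 higher (1.49%). The lower genes were Hmgcs1, Mvd, Fdps, Fdft1, Sqle, Lss, Cyp51, Msmo1, Nsdhl, Srebf2 and Stard4. In GRCm38 annotation, exons of Fdft1, Cyp51, Ggps1, Srebf1 and Npc1 overlap those of Ctsb, Akap9, Arid4b, Rai1 and Rmc1 on the opposite strand, and exons of Hmgcs1, Idi1, Lss and Scap overlap antisense or unclassified transcripts there. Whether counting used the strand is not stated, so reads of such pairs may not have been separated. Exons of Tm7sf2 and Fdps overlap Vps51 and Gm43738 on their own strand, where strand cannot separate the reads.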

How the data were processed

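The authors deposited whole-number read counts per gene symbol for 10 libraries of the NMC line, made from 30 ng of RNA with a stranded poly(A) kit, per the labels' protocols. The submitters' processing notes name GRCm38 (mm10) and DESeq2; the sources used here give no aligner, counting program or strand setting. Totals were 4424725 to 8129979 counts, so that the limit of 3 counts is 0.369 to 0.678 CPM, for counting error only.

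Genes passing filterByExpr (10789) were compared with edgeR 4.0.16 in R 4.3.3 (TMM, two-sided quasi-likelihood F test, a single term for matrix), with Benjamini-Hochberg adjustment over all of them and a threshold of 0.05. The SE of a log2 difference was taken from the difference and the square root of F. Deviations use log2 CPM with about 2 counts added. The closest libraries differed by more than sampling noise (3.32 times the expected chi-square), so all 10 were kept. Alternatives were DESeq2 1.42.0, limma-voom 3.58.1, other scalings and filters, a replicate block, libraries left out, and a spline trend on length and GC content (GENCODE M21). The steps were also run on simulated counts, drawn independently for each gene and library. That simulation held no library with a shifted group of genes and no length or GC trend, so it does not cover these features of the data. The sterol genes and the lists were chosen with earlier results of these data known. All 31 sterol genes are named; of other lists, the called genes or the 2 with the lowest p; others were named after their values were seen.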

Additional observations from a re-analysis of the deposited data

Results flagged for a closer look

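For 68 groups of 5 libraries (29 genes and 5 gene lists in each matrix), gaps between libraries were measured on log2 CPM. In 4 groups a library's gap to the next passed 0.71 of the group's range, where chance gives about 5%, or 3.4. All 4 were laminin replicate 1 and a high value. Hmgcs1 was at 560.4 CPM against 229 CPM in the next laminin library. Lss was at 234.2 CPM against 94.5 CPM, Nsdhl at 110.3 CPM against 50.1 CPM, and Srebf2 at 753.3 CPM against 473 CPM. These genes share their libraries, so the 4 are not independent. The CPM given here are unlogged, and on that scale other genes could pass the same cutoff. What sets this library apart was not tested.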

How the results depend on the processing

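Over 27 alternatives, of which 5 combined the omission of laminin replicate 1 with another choice after the data were seen, 668 of 783 values of single genes kept their direction and their side of the threshold. A further 33 became calls, 29 of them without laminin replicate 1, and 82 changed sign without being called in either fit; none reversed as a call.

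The 16 genes called over the whole table became 214 with DESeq2, 29 without a filter, 104 with the length and GC trend removed, 2083 without collagen letter B, 5 without collagen letter D, 1 without laminin letter E and 5 without laminin letter F. With single libraries left out they ran from 0 to 64, reaching 64 when laminin 1 was omitted and 36 for laminin 4, with 5 for laminin 3 or 5, 2 for collagen 2, and 0 for laminin 2, collagen 3 or collagen 5. The count of sterol genes called, 0 of 29, was 1 with DESeq2, 1 with the trend removed and 2 without collagen letter B, and ran from 0 to 2 with single libraries left out. The median of the 29 genes was -0.492 without laminin letter E and ran from -0.476 to -0.055 with single libraries left out; that of the synthesis enzymes ran from -0.653 to -0.176. The cause was not tested.

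Together with the omission of laminin replicate 1, all genes, sterol genes called and their median were 276, 12 and -0.441 with the trend removed, 316, 9 and -0.486 with DESeq2, 64, 3 and -0.462 with limma-voom, and 68, 3 and -0.477 with library size only.

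Samples of the same replicate number did not regularly deviate together (correlations of -0.327 to 0.483 across genes, with 3 of 5 below 0). The main fit therefore did not pair them, though so few correlations cannot exclude a pairing. With the number as a block, 0 genes and 0 sterol genes were called, with 1049 genes at an unadjusted p under 0.05, and without laminin replicate 1 the block fit gave 23 genes, 0 sterol genes and a synthesis median of -0.691.

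Depth limits Abcg1, which had 0 counts in 8 libraries and 2 and 1 in the others, Mylip, with 0 to 8 counts per library, and Abca1 in collagen, with 4 to 50 counts.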
